A study of Mus musculus with 23 samples.

Results

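The genes described here are 10 markers of blood monocytes that enter the lung, taken by gene symbol from the 35322 genes listed in the expression table, and all 10 were found. Of these, 3 mark classical monocytes (Ly6c2, Ccr2 and F13a1) and 7 mark patrolling, or non-classical, monocytes (Ace, Treml4, Adgre4, Cd300e, Nr4a1, Cx3cr1 and Spn). Lung RNA came from BALB/c mice of 13 weeks, described as female, whose dams had received either saline or fine particulate matter (PM2.5) in the nose before mating, through gestation and until weaning, and no offspring was exposed directly. Offspring were then either left without allergen or sensitised with ovalbumin (OVA) and alum and challenged with aerosolised OVA to induce allergic airways disease (AAD), which gave 7 Sham libraries (saline dams, no OVA), 7 PM libraries (PM2.5 dams, no OVA), 5 Sham-OVA libraries and 4 PM-OVA libraries. For the groups without OVA the labels name PBS and the study's methods name nebulised saline, and all lungs had undergone a methacholine lung function test before collection. The dam of each mouse was not given in the sources used here, so p-values measure the spread between these mice, some of which may be littermates.

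Classical monocytes carry Ly6C and the chemokine receptor CCR2 and leave the bone marrow and blood towards inflamed tissue, where they can become macrophages or dendritic cells. Patrolling monocytes crawl along the inner wall of small vessels, carry CX3CR1 and CD43, and depend on the nuclear receptor NR4A1 for their development. Several of these genes are also used by other lung cells, such as capillary endothelium for Ace and T cells for Spn, and in RNA from whole lung a smaller number of cells and less RNA per cell cannot be told apart.

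Reads assigned to genes numbered between 13089691 and 17393579 in the libraries without OVA, between 2298645 and 12185451 in Sham-OVA and between 4324326 and 12355561 in PM-OVA. The shallowest were 1 Sham-OVA library (replicate 3) and 2 PM-OVA libraries (replicates 3 and 4). Replicates within a group correlated at 0.971 or above without OVA and at 0.895 or above with OVA. Sham replicate 1 went against the description as female, with Xist at 0.289 RPM and the Y-linked gene Eif2s3y at 54.0 RPM, and Sham replicate 6 had the plasma cell gene Jchain at 145 RPM against at most 54.8 RPM in the other Sham libraries. Without these 2 libraries no call of a monocyte gene changed. All values are RPM, a read count scaled to the size of its library and not corrected for gene length. Fold changes are log2 differences of RPM plus 0.5, and the added 0.5 by itself draws the change of low genes towards 0. Under the other ways of scaling the libraries, given below, the falls of Treml4 and Adgre4 were smaller than with RPM.

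Ly6c2, the gene for the surface protein by which classical monocytes are usually sorted, has a close neighbour, Ly6c1, that is known as an abundant gene of lung endothelium. Ly6c2 lies on the minus strand at chr15:75108158-75111970 and Ly6c1 on the same strand at chr15:75044018-75048830 (GRCm38, GENCODE vM21). Their coding sequences, taken from transcripts Ly6c2-201 and Ly6c1-201, are each 396 bases long and differ at 9 positions, an identity of 97.7%. The 100 coding bases in which they differ most, bases 1 to 100, hold 6 of these differences, shown in capitals because a read must cover one of them to be told apart.
Ly6c2: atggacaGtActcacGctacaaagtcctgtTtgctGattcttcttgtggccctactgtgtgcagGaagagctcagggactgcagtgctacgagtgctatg
Ly6c1: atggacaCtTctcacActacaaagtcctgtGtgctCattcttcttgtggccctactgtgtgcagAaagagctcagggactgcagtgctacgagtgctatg
Of the 297 stretches of 100 coding bases, 89 held no difference at all. Over the whole transcript, 15.8% of 100-base stretches of Ly6c2 occurred letter for letter in Ly6c1. The same share was 0% for F13a1 and for the 7 patrolling genes, and that of Ccr2 is not reported here. Ly6c2 and Ly6c1 values are therefore uncertain.

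The 3 patrolling genes whose levels were lowest after OVA, Treml4, Adgre4 and Cd300e, are shown by the 250 bases before their RefSeq start sites, read 5′ to 3′ on the strand of the gene (GRCm38.p6). Capitals mark GAGGAA, a core sequence bound by the myeloid factor PU.1, or its reverse complement TTCCTC. The windows are chr17:48264045-48264294 on the plus strand for Treml4, chr17:55749734-55749983 on the plus strand for Adgre4, and chr11:115062040-115062289 on the minus strand for Cd300e.
Treml4: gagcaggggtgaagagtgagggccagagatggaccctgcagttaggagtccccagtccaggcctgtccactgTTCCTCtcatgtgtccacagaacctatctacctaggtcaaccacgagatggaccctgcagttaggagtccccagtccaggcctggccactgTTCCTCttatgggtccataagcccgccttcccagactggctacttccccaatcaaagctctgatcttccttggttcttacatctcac
Adgre4: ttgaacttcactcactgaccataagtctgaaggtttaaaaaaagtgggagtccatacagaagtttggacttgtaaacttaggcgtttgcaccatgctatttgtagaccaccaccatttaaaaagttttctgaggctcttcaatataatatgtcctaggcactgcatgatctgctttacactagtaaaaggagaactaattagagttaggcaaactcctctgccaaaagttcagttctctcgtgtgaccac
Cd300e: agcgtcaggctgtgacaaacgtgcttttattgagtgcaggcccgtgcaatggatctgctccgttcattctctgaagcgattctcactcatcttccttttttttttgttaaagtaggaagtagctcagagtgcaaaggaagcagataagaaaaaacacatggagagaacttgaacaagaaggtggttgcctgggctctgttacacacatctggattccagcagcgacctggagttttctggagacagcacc
The Treml4 window held 2 matches, both within a repeated stretch of which 40 bases recurred exactly. The Adgre4 and Cd300e windows held none, although Adgre4 had 1 match within the 50 bases after its start. Over windows of 250 bases before to 50 bases after the start, 7 of the 13 promoters listed for the 10 monocyte genes, belonging to 5 genes, had a match, and 28.3% of all 32851 mouse promoters in the table had one. The 2 promoters listed for Ly6c2 overlap and hold the same 2 matches, so the promoters counted are not all separate regions. A match describes these letters only.

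Compared per kilobase of annotated exon, Ace was the highest of the 10 genes in Sham, at 284 ± 48.9 RPM per kb (SD, n = 7). It was followed by Nr4a1 at 34.1 ± 14.4, Spn at 11.3 ± 2.97, Ccr2 at 7.83 ± 1.56, Cx3cr1 at 3.25 ± 1.1, F13a1 at 2.43 ± 1.45, Treml4 at 2.30 ± 0.851, Cd300e at 1.67 ± 0.786 and Adgre4 at 1.66 ± 0.475 RPM per kb. Ly6c2 was at 0. The last 4 genes above 0, from F13a1 to Adgre4, had overlapping intervals of mean ± 1 SD.

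**Figure D1:**
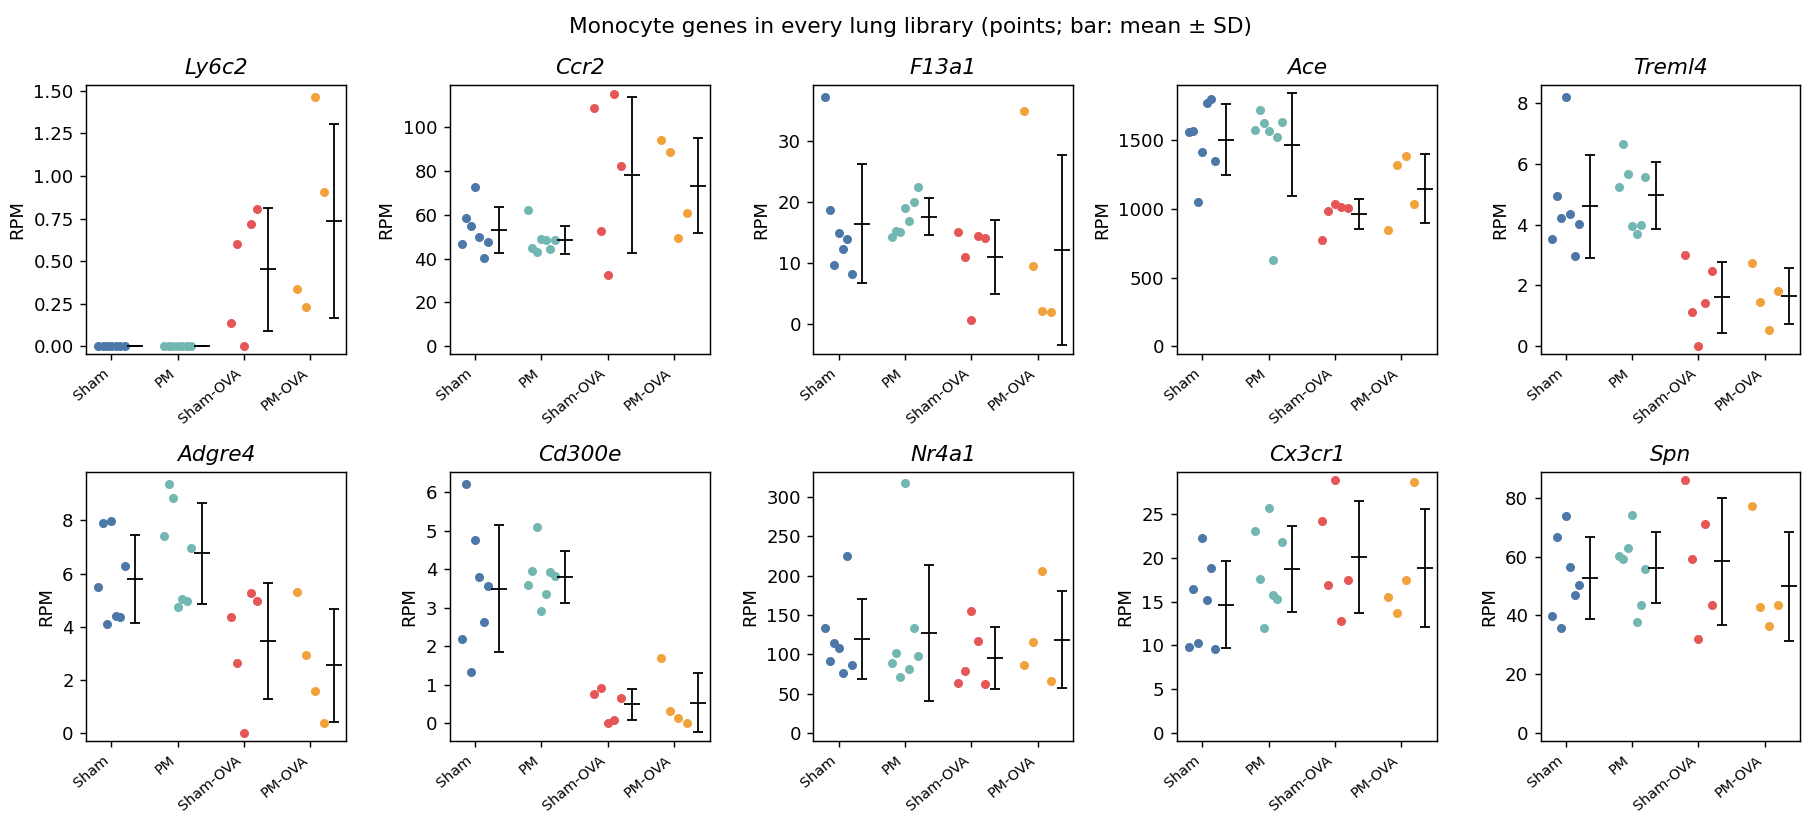
RPM of each of the 10 monocyte genes (vertical axis, one scale per gene) in every library of the 4 groups (horizontal axis), with points for libraries and bars for the group mean ± SD. Cd300e lay at or below 0.903 RPM in all Sham-OVA libraries and at or above 1.33 RPM in all Sham libraries, whereas the groups overlapped for Cx3cr1, Nr4a1 and Spn.

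The first question was what OVA challenge did to monocyte genes in the lungs of offspring of saline dams. Cd300e, Treml4 and Ace were lower in Sham-OVA than in Sham and Ly6c2 was seen only in Sham-OVA, while Ccr2, F13a1, Adgre4, Nr4a1, Cx3cr1 and Spn did not pass the test (limma on log2 values, Benjamini-Hochberg adjusted p under 0.05 over 16795 genes tested). The 1 gene of 10 called higher, where 20.6% of all genes tested were, was Ly6c2, which was tested only because of its OVA libraries, so 0 of the other 9 were called higher. Called lower were 3 of 10, where 47.5% of all genes were. The median log2 difference was -0.48 over the 10 genes and also -0.48 over all genes, so values are best read against that shift. With the libraries scaled by the median of ratios, the split over all genes moved from 3453 higher and 7978 lower to 4904 higher and 6407 lower, and that of the 10 genes from 1 higher and 3 lower to 4 higher and 2 lower.

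In offspring of PM2.5 dams, Cd300e, Adgre4 and Treml4 were lower after OVA, Ccr2 was higher and Ly6c2 was seen only after OVA. Here 2 of 10 genes were called higher against 20.1% of all genes, of which Ly6c2 was again tested only because of its OVA libraries, and 3 of 10 were called lower against 45.2% of all genes. The median log2 difference was -0.26 over the 10 genes and -0.43 over all genes. With median-of-ratios scaling 2 of the 10 were still called higher and 3 lower, while the split over all genes moved from 3379 higher and 7589 lower to 4862 and 6003. All 10 genes passed the filter on low values, Ly6c2 only through the OVA libraries.

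**Figure D2:**
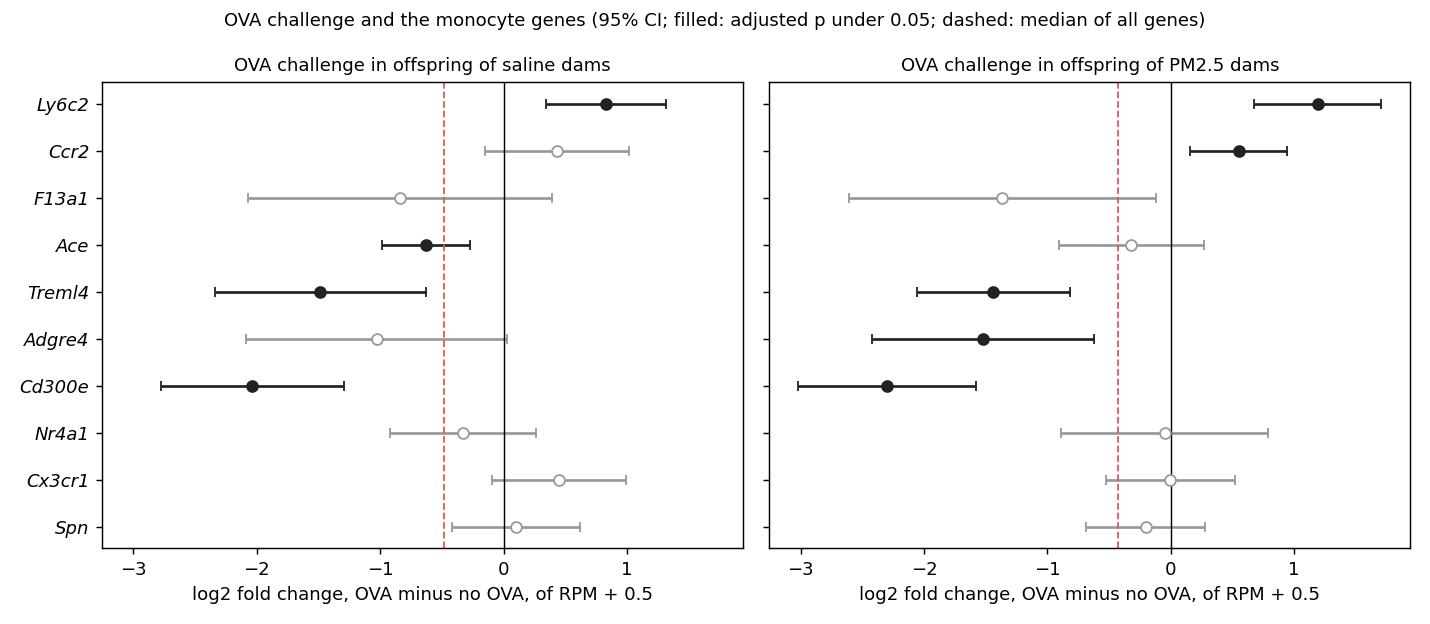
Log2 fold change after OVA challenge (horizontal axis, OVA minus no OVA) of the 10 monocyte genes (vertical axis) in offspring of saline dams and of PM2.5 dams, with 95% confidence intervals. Filled points passed an adjusted p of 0.05 (Ly6c2 was tested only because of its OVA libraries), and the dashed line marks the median of all genes at -0.48 and -0.43. Cd300e and Treml4 lay left of the dashed line in both panels.

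Among the classical genes, Ly6c2 had no read in any of the 14 libraries without OVA. It had 0.139, 0.602, 0, 0.717 and 0.803 RPM in the 5 Sham-OVA libraries, which was 30 reads in all, and 0.336, 0.232, 1.46 and 0.908 RPM in the 4 PM-OVA libraries, 24 reads in all. Every PM-OVA library and 4 of 5 Sham-OVA libraries were thus above all libraries without OVA. Pooled over the group, Ly6c2 stood at 0.525 RPM in Sham-OVA and 0.587 RPM in PM-OVA. These values were 21.2 and 23.4 times a floor of 3 reads over the whole control group. That floor allows for counting error in the controls only, not in the OVA reads, and not for the spread between mice. Ly6c2 passed the filter on low values only through the OVA libraries, so it had to differ. Neither these ratios nor its p-values are given as support. Ly6c1 stayed at 0.182 to 1.11 RPM in all 23 libraries, so both genes of this near-identical pair were close to the limit of detection.

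Ccr2, the receptor for CCL2 by which classical monocytes leave the marrow, ranged from 40.3 to 72.8 RPM in Sham (median 49.8) and from 43.0 to 62.2 RPM in PM (median 48.5). The 5 Sham-OVA mice had 108, 52.4, 32.3, 115 and 82.3 RPM and the PM-OVA libraries 94.2, 88.6, 49.4 and 60.8 RPM. The lowest value in each OVA group came from a shallow library, and both OVA groups overlapped their controls. The log2 difference was 0.55 ± 0.18 (SE) in offspring of PM2.5 dams, adjusted p = 0.0175 (limma), and 0.43 ± 0.27 in offspring of saline dams, adjusted p = 0.171. Without Sham-OVA replicate 3 the latter was 0.71 with adjusted p = 0.00295, and under the other scalings it lay between 0.80 and 0.95 and passed the test. In offspring of PM2.5 dams the other scalings gave 0.91 to 0.98 and kept the call. It was lost without PM-OVA replicate 2 (0.44, adjusted p = 0.0616), with array weights (0.25, adjusted p = 0.275), with a replicate block (0.52, adjusted p = 0.0856) and with all 4 groups in one fit (adjusted p = 0.0639, limma).

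F13a1, the A subunit of coagulation factor XIII, is made by classical monocytes, by some tissue macrophages and by platelet precursors. It ranged from 8.23 to 37.1 RPM in Sham (median 13.9) and from 14.2 to 22.5 RPM in PM (median 16.8). In Sham-OVA the values were 15.1, 10.9, 0.621, 14.3 and 14.1 RPM and the PM-OVA libraries 34.8, 9.51, 2.12 and 2.00 RPM. The 3 libraries with the lowest F13a1 were the 3 shallowest libraries, at 2, 16 and 11 reads, and the part of depth in these values was not tested. The log2 difference was -0.84 ± 0.58 in offspring of saline dams (adjusted p = 0.207) and -1.36 ± 0.57 in offspring of PM2.5 dams (adjusted p = 0.0515, limma). Without Sham-OVA replicate 3 the former was -0.11. Without those 3 libraries the latter was 0.07, and without PM-OVA replicate 1 it was -2.15 with adjusted p = 1.56e-04. It also passed with array weights (-2.44, adjusted p = 1.85e-05). F13a1 shares its locus with the genes Gm49144 and Gm30489 on the opposite strand, and whether strand was used in counting was not given in the sources used here. The same limit holds for Ace, with 1 gene on the opposite strand, and Adgre4, with 2.

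Among the patrolling genes, Cd300e, an activating receptor of the CD300 family on monocytes, showed the largest fall of the 10 genes in both comparisons. It ranged from 1.33 to 6.21 RPM in Sham (median 3.56) and from 2.90 to 5.09 RPM in PM (median 3.81). Sham-OVA values were 0.764, 0.903, 0, 0.0797 and 0.657 RPM and the PM-OVA libraries 1.68, 0.309, 0.133 and 0 RPM. Each OVA library lay below every library of its control group. The log2 difference was -2.04 ± 0.35 in offspring of saline dams (adjusted p = 1.29e-04) and -2.30 ± 0.33 in offspring of PM2.5 dams (adjusted p = 1.60e-04, limma). Without the 3 shallow libraries the latter was -1.68, adjusted p = 0.00131.

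Treml4, a TREM-like receptor of patrolling monocytes and some dendritic cells, ranged from 2.96 to 8.18 RPM in Sham (median 4.23) and from 3.70 to 6.65 RPM in PM (median 5.23). The 5 Sham-OVA mice had 2.99, 1.13, 0, 1.43 and 2.48 RPM and the PM-OVA libraries 2.75, 1.47, 0.531 and 1.82 RPM. All PM-OVA libraries were below all PM libraries, and 1 Sham-OVA library, at 2.99 RPM, was just above the lowest Sham library at 2.96 RPM. The log2 difference was -1.49 ± 0.40 in offspring of saline dams (adjusted p = 0.00428) and -1.44 ± 0.29 in offspring of PM2.5 dams (adjusted p = 9.47e-04, limma). Without Sham-OVA replicate 3 the former was -1.03 (adjusted p = 0.00178, limma). Without the 3 shallow libraries the latter was -1.08 (adjusted p = 0.00504, limma). The other scalings gave -0.99 to -1.31 in offspring of saline dams and -1.03 to -1.24 in offspring of PM2.5 dams, and kept the calls.

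Adgre4, an adhesion G protein-coupled receptor also called F4/80-like receptor FIRE, ranged from 4.11 to 7.99 RPM in Sham (median 5.48) and from 4.74 to 9.36 RPM in PM (median 6.94). After OVA, Sham offspring had 4.38, 2.63, 0, 5.26 and 4.97 RPM and the PM-OVA libraries 5.31, 2.94, 1.59 and 0.363 RPM. The groups overlapped in both comparisons, and 3 of 4 PM-OVA libraries lay below all PM libraries. The log2 difference was -1.52 ± 0.42 in offspring of PM2.5 dams (adjusted p = 0.00648) and -1.03 ± 0.50 in offspring of saline dams (adjusted p = 0.0776, limma). Without the 3 shallow libraries the former was -0.66 and no longer passed (adjusted p = 0.0805). The latter was -0.38 without Sham-OVA replicate 3, and it passed without Sham-OVA replicate 4 (-1.27, adjusted p = 0.0444) or replicate 5 (-1.25, adjusted p = 0.0495).

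Because Treml4, Adgre4 and Cd300e are low, their reads were also added and set against those of Ccr2 in the same library. Scaling a library by a single factor does not change the resulting ratio, though quantile normalization could. The 3 genes were chosen because they were low after OVA, and Ccr2, which was higher after OVA in some fits, lowers the ratio further, so the separation follows in part from the choice and has no test. There were 17.6 to 32.5 reads of the 3 genes per 100 Ccr2 reads in Sham (median 25.2) and 23.7 to 45.5 in PM (median 29.1). In Sham-OVA the values were 7.50, 8.90, 0, 5.89 and 9.85 and the PM-OVA libraries 10.3, 5.32, 4.57 and 3.58. The OVA libraries lay below all libraries without OVA, with the 3 shallow libraries and without them.

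**Figure D3:**
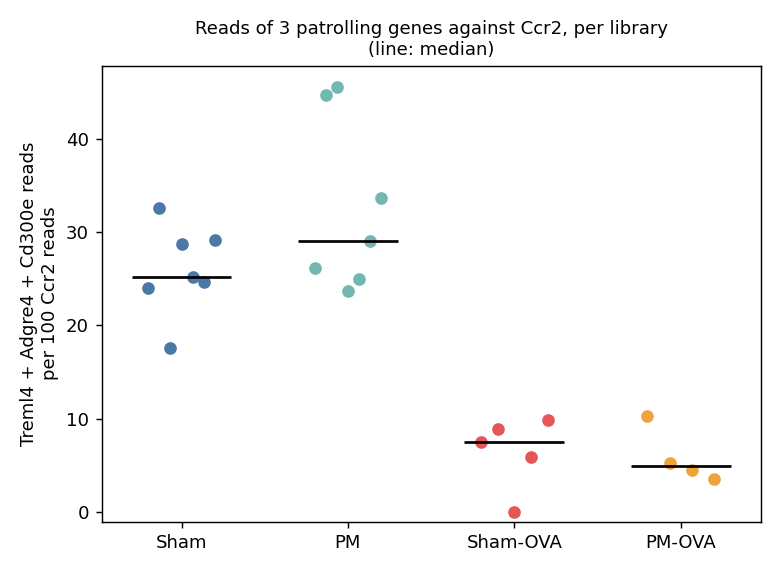
Reads of Treml4, Adgre4 and Cd300e added together per 100 reads of Ccr2 (vertical axis) in each library of the 4 groups (horizontal axis), with a line at the group median. Libraries without OVA lay at 17.6 or above and OVA libraries at 10.3 or below.

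Ace, the angiotensin-converting enzyme, is carried by patrolling monocytes in mice and in far larger amount by lung capillary endothelium. It ranged from 1054 to 1804 RPM in Sham (median 1562) and from 631 to 1717 RPM in PM (median 1578). Sham-OVA values were 773, 988, 1034, 1011 and 1005 RPM and the PM-OVA libraries 851, 1324, 1385 and 1033 RPM. All Sham-OVA libraries lay below all Sham libraries, and PM-OVA overlapped PM through PM replicate 5, at 631 RPM. The log2 difference was -0.63 ± 0.17 in offspring of saline dams (adjusted p = 0.00386) and -0.32 ± 0.27 in offspring of PM2.5 dams (adjusted p = 0.316, limma). The first call was lost with median-of-ratios scaling (-0.26), edgeR (-0.15) and DESeq2 (-0.22), and the second passed without PM replicate 5 (-0.51, adjusted p = 0.0140). The summed level of 10 capillary endothelial genes ranged over 3661 to 8120 RPM (Sham), 2246 to 7992 RPM (PM), 4452 to 5470 RPM (Sham-OVA) and 4452 to 5851 RPM (PM-OVA), none of the 10 was at 0, and their part in the Ace result was not tested.

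Counted together, 2 of 10 genes did not overlap between Sham-OVA and Sham and were lower (Ace and Cd300e), where 35% of all genes tested were of this kind, and 0 of 10 were higher without overlap, against 13.2% of all genes. Between PM-OVA and PM, 2 of 10 were lower without overlap (Treml4 and Cd300e) against 28.6% of all genes, and 1 of 10 was higher, against 13.3%. That gene was Ly6c2, which entered the test only through its OVA libraries.

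Nr4a1, an immediate early gene in many cells as well as the factor that patrolling monocytes need, ranged from 75.9 to 226 RPM in Sham (median 108) and from 70.8 to 318 RPM in PM (median 97.8). The 5 Sham-OVA mice had 64.1, 78.8, 155, 117 and 62.5 RPM and the PM-OVA libraries 86.5, 116, 206 and 65.7 RPM. The groups overlapped widely, with log2 differences of -0.33 ± 0.28 (adjusted p = 0.305) and -0.05 ± 0.39 (adjusted p = 0.914, limma). In the 2 libraries with the most Nr4a1, Sham replicate 6 and PM replicate 4, Fos stood at 173 and 197 RPM and Egr1 at 164 and 309 RPM, against group means of 113 and 110 RPM for Fos and 152 and 174 RPM for Egr1. PM replicate 6 had Fos at 183 RPM and Egr1 at 369 RPM with Nr4a1 at 133 RPM, so high Fos and Egr1 did not always go with the highest Nr4a1.

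Cx3cr1, the fractalkine receptor, ranged from 9.64 to 22.3 RPM in Sham (median 15.2) and from 11.9 to 25.7 RPM in PM (median 17.6). After OVA, Sham offspring had 24.2, 16.9, 28.9, 12.8 and 17.5 RPM and the PM-OVA libraries 15.5, 13.8, 17.5 and 28.7 RPM. The groups overlapped, with log2 differences of 0.45 ± 0.25 (adjusted p = 0.129) and -0.01 ± 0.24 (adjusted p = 0.985, limma). In offspring of saline dams the difference passed the test under the other 4 scalings, at 0.81 to 0.93. The annotated span of Cx3cr1 overlaps 9 other genes, among them Gorasp1, Csrnp1 and Xirp1 on its own strand, so reads of these genes may be counted with it.

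Spn, the gene for CD43, a sialomucin of most white blood cells, ranged from 35.6 to 73.8 RPM in Sham (median 50.3) and from 37.9 to 74.2 RPM in PM (median 59.1). In Sham-OVA the values were 86.2, 59.2, 32.0, 71.2 and 43.5 RPM and the PM-OVA libraries 77.3, 42.7, 36.2 and 43.4 RPM. The groups overlapped, with log2 differences of 0.10 ± 0.24 (adjusted p = 0.724) and -0.20 ± 0.22 (adjusted p = 0.436, limma). In offspring of saline dams it passed under the other 4 scalings, at 0.47 to 0.56. The summed level of 8 T cell genes was 62.2 to 127 RPM in Sham and 105 to 205 RPM in Sham-OVA, none was at 0, and its part in the Spn values was not tested.

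**Figure D4:**
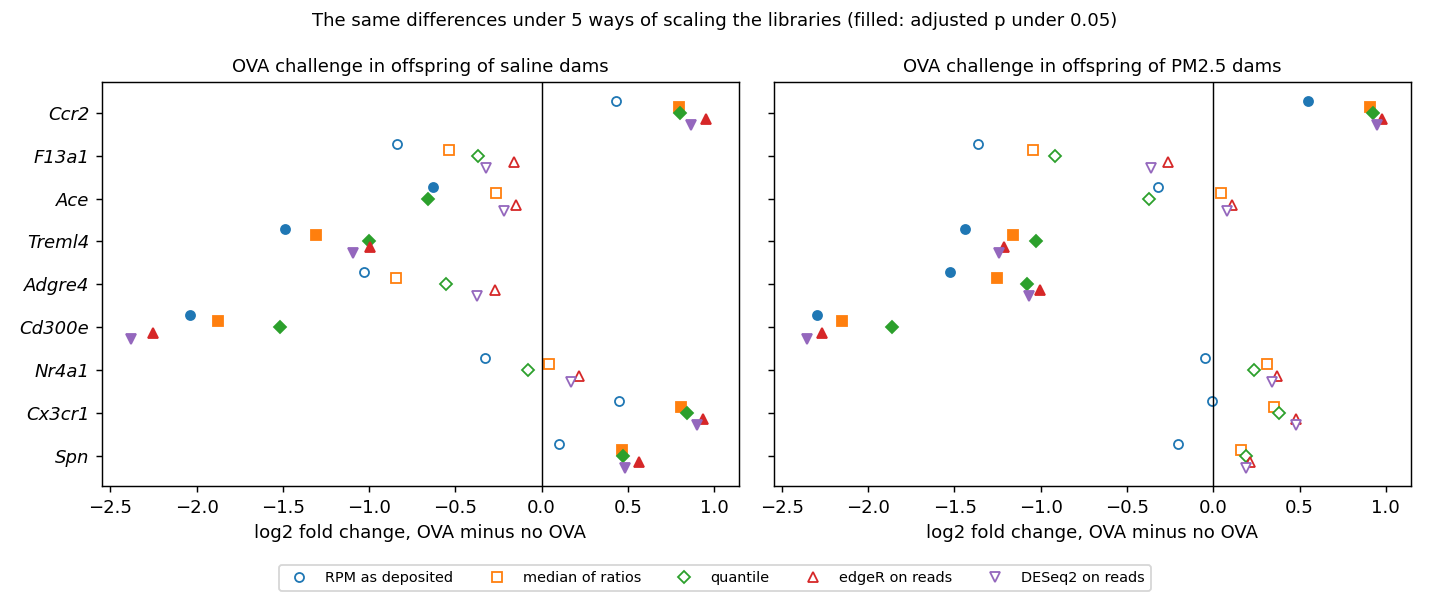
Log2 fold change after OVA (horizontal axis) of 9 monocyte genes (vertical axis) under 5 ways of scaling the libraries (symbols), filled where the adjusted p was under 0.05. Ly6c2 is left out because its control libraries are all at 0. Cd300e and Treml4 were filled and negative throughout, Ace was filled under 2 scalings in offspring of saline dams only, and Nr4a1, Ace, Cx3cr1 and Spn crossed 0 in at least 1 panel without a call that changed sign.

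The second question was whether maternal PM2.5 exposure changed these genes. Between PM and Sham, 0 of 10 genes were called, where 0% of all genes tested were, and 0 of 10 had an unadjusted p under 0.05 (limma). Between PM-OVA and Sham-OVA the counts were also 0 of 10 called, against 0% of all genes, and 0 of 10 at an unadjusted p under 0.05. edgeR and DESeq2 on recovered reads likewise called 0 of 10 in both. The widest difference without OVA was that of Cx3cr1, 0.37 ± 0.21 with a 95% confidence interval of -0.07 to 0.81, and for Ccr2 it was -0.11 with an interval of -0.35 to 0.13. After OVA the intervals were wider, -0.86 to 0.87 for Ccr2, -1.13 to 1.01 for Cd300e and -2.52 to 1.95 for F13a1. Differences within these intervals are therefore not excluded.

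The third question was whether OVA acted differently by maternal exposure, tested as the interaction over all 4 groups. It was called for 0 of 10 genes and 0% of all genes (limma), with 0 of 10 at an unadjusted p under 0.05 and 0 of 10 by edgeR and by DESeq2. The interaction was -0.26 for Cd300e (interval -1.30 to 0.77), 0.05 for Treml4 (-1.04 to 1.13), 0.12 for Ccr2 (-0.61 to 0.84) and 0.31 for Ace (-0.33 to 0.95). The calls of Ace in offspring of saline dams and of Ccr2 and Adgre4 in offspring of PM2.5 dams are therefore not shown to differ by maternal exposure. With array weights the interaction was called for F13a1 and Adgre4, 2 of 10, in a fit that called 651 genes higher and 3965 lower of 16795.

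Other genes of monocyte recruitment and development were read from lists of the same kind, and the counts called are to be set against all genes tested, of which 20.6% were higher and 47.5% lower in offspring of saline dams and 20.1% and 45.2% in offspring of PM2.5 dams. Of 12 further genes of classical monocytes, 3 were higher and 3 lower in offspring of saline dams and 2 higher and 4 lower in offspring of PM2.5 dams, with median log2 differences of -0.15 and -0.44. S100a4, a calcium-binding protein of motile cells, rose by 2.5 and 2.15 on the log2 scale, and Hp, the haptoglobin gene, fell by 1.73 and 1.30, the latter not called by edgeR. In the other 4 scalings 4 to 5 of the 12 genes were higher and 1 to 2 lower. Of 11 further patrolling genes tested, 8 were higher and 2 lower in offspring of saline dams and 6 higher and 2 lower in offspring of PM2.5 dams. Pglyrp1, a peptidoglycan recognition protein that neutrophils also carry, rose by 3.54 and 3.14, Clec4a3, a C-type lectin, by 1.81 and 1.54, and Ceacam1, an adhesion molecule also of epithelium and endothelium, fell by 3.88 and 3.43.

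The list of 8 monocyte ligand and growth factor genes also holds Csf1r, a receptor gene. Of these 8, 5 were higher and 1 lower in offspring of saline dams and 4 higher and 0 lower in offspring of PM2.5 dams. Under the other scalings 7 and 4 to 5 were higher. The CCR2 ligand gene Ccl2 went from 0.613 ± 0.353 RPM in Sham to 11.2 ± 6.64 RPM after OVA, and from 1.06 ± 0.304 to 6.34 ± 2.80 RPM in offspring of PM2.5 dams, log2 rises of 3.28 and 2.05. Ccl7 and Ccl12, which encode further ligands of CCR2, rose by 3.63 and 2.43 and by 3.41 and 3.09. Cx3cl1, the ligand of CX3CR1, was lower in offspring of saline dams, -1.08 (adjusted p = 6.89e-04), and -0.51 with adjusted p = 0.147 in offspring of PM2.5 dams (limma).

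Of 10 transcription factors of monocytes, 4 were higher and 5 lower in both comparisons. Spi1, the gene for PU.1, rose from 38.1 ± 15.8 RPM in Sham to 139 ± 25.5 RPM in Sham-OVA and from 39.0 ± 5.67 RPM in PM to 111 ± 11.5 RPM in PM-OVA. Irf4, a factor of plasma cells, dendritic cells and alternatively activated macrophages, rose by 4.32 and 3.75 on the log2 scale. Klf4, which monocyte development needs and which epithelium and endothelium also express, fell from 72.9 ± 23.9 RPM to 0.837 ± 0.482 RPM and from 80.1 ± 31.4 RPM to 9.47 ± 17.1 RPM, and Zeb2, a repressor in monocytes and macrophages, fell by 1.91 and 2.09. In the other scalings these directions held and no call of these 4 genes was lost, but the number of factors called lower was 3 in both comparisons.

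Of 9 leukocyte adhesion genes tested, 2 were higher and 2 lower in both comparisons, and in offspring of saline dams 3 to 5 were higher under the other scalings. Itga4, a subunit of the integrin VLA-4, rose by 1.27 and 0.76, and Selplg, the P-selectin ligand, by 1.55 and 1.18. Icam1, a ligand of leukocyte integrins, fell by 1.25 and 1.20. Itgb1, which encodes the partner subunit of Itga4 in VLA-4, also fell, with a mean log2 difference of -1.21 over both comparisons. Genes of other cells moved in the same libraries. All 10 interstitial macrophage genes were higher in offspring of saline dams and 9 of 10 in offspring of PM2.5 dams, led by C1qa, and of 7 NK cell genes tested 6 and 7 were lower (4 to 5 in the other scalings). Their summed levels were 844 to 1479 RPM in Sham and 3201 to 4924 RPM in Sham-OVA for macrophage genes, and 69.9 to 189 RPM and 23.3 to 106 RPM for NK cell genes (with Klra8 at 0 throughout), and their part in the monocyte gene results was not tested.

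Within the 14 libraries without OVA, after each group's mean was taken out, levels of Treml4, Adgre4 and Cd300e moved together across mice. Spearman's rho was 0.77 for Treml4 and Adgre4, 0.71 for Adgre4 and Cd300e and 0.67 for Treml4 and Cd300e, and it was -0.55 for Cd300e and Nr4a1. Among 11742 or 11743 candidate genes, those most like Cd300e were S1pr5 (0.96), Gmpr2 (0.90) and Il2rb (0.88). Those most like Treml4 were Septin1, Rbm38 and Rtp4, and those most like Adgre4 were H2-T22, Haao and Abraxas1, at 0.83 to 0.92. Spn was most like Rasgrp1, Ripor2 and Themis (0.94 to 0.95), Ace most like A330009N23Rik, Sema3g and Ednrb (0.92 to 0.93), Ccr2 most like Gm28875, Gm10524 and Nckap1l (0.89 to 0.92) and Cx3cr1 most like Ano10, Wnt7a and Erlin2 (0.93 to 0.95). Nr4a1 was most like Stam2, Ptgs2 and Nrarp and F13a1 most like Fbxo10, Srxn1 and Api5 (0.79 to 0.93). These values describe 14 libraries that share depth and tissue composition, with no test.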

How the data were processed

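RNA-seq of lung from 23 mice was used. Per the study's methods and labels, the authors trimmed 100-base reads, mapped them to GRCm38 (mm10) with Bowtie2 and quantified genes in SeqMonk, and libraries were of a stranded mRNA kit. The deposited values, in a table named for another unit, are RPM: within each library all values (100%) were whole multiples of 1 read to within 0.02 reads, whatever the gene's length, so whole reads were recovered. Depth on genes ranged from 2298645 to 17393579 reads, which sets the precision of low genes.

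Groups came from the sample titles. The 16795 genes that reached 0.5 RPM in 4 or more of the 23 libraries were tested on log2(RPM + 0.5) with limma 3.58.1 (R 4.3.3) using a mean-variance trend, on the 2 groups compared, and the interaction on all 4, with Benjamini-Hochberg adjustment and a call at an adjusted p under 0.05. The method was tested on simulated counts in which only genes of at least 5 mean RPM were changed, without a shift over all genes. That test does not cover genes as low as Cd300e, Treml4 and Ly6c2, or the wider spread of the OVA libraries. edgeR 4.0.16 and DESeq2 1.42.0 on recovered reads, as alternatives, called 5585 higher and 5669 lower and 5362 higher and 6392 lower in offspring of saline dams, and 5277 and 4961 and 5323 and 5587 in offspring of PM2.5 dams. Other alternatives were the pseudocount, the filter, scaling by median of ratios or quantiles, array weights, a replicate block, a stricter threshold, and leaving out libraries.

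Sequences came from GENCODE vM21 transcripts and RefSeq promoters. The 10 genes and all lists were chosen with earlier results of these data known. Named genes are the 10, and of each other list at most the 3 largest rises and 3 largest falls among genes called the same way in both OVA comparisons, with Cx3cl1 added after its values were seen, and for likeness the 3 highest Spearman rho among tested genes of at least 5 mean RPM.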

Additional observations from a re-analysis of the deposited data

Results flagged for a closer look

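In 8 cases 1 library stood apart from the rest of its group by Dixon's test on RPM, of 38 gene and group combinations with any spread, and chance alone flags about 1 in 20. Ace was lowest in PM replicate 5 (631 RPM, the next 1527 RPM) and in Sham-OVA replicate 1 (773 RPM, the next 988 RPM). Nr4a1 was highest in Sham replicate 6 (226 RPM, the next 133 RPM) and in PM replicate 4 (318 RPM, the next 133 RPM). F13a1 was highest in Sham replicate 1 (37.1 RPM, the next 18.7 RPM) and lowest in Sham-OVA replicate 3 (0.621 RPM, the next 10.9 RPM). Ccr2 was highest in PM replicate 1 (62.2 RPM, the next 48.9 RPM), and Treml4 in Sham replicate 4 (8.18 RPM, the next 4.94 RPM). No gene of the 10 had an interaction past the threshold.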

How the results depend on the processing

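Under every alternative, a called gene that stayed called kept its direction. In offspring of saline dams, the number called higher moved from 1 to 4 with median-of-ratios scaling, quantile normalization, edgeR and DESeq2, to 2 with array weights and without Sham-OVA replicate 3, the shallowest library, and to 0 with a filter on a mean of at least 1 RPM, which does not test Ly6c2. The number called lower was 2 to 4. A stricter threshold (adjusted p under 1e-06 and a log2 change beyond 1) left 0 higher and 0 lower in both comparisons. Over all 16795 genes tested, that threshold called 333 higher and 425 lower in offspring of saline dams, and 44 and 4 in offspring of PM2.5 dams. In offspring of PM2.5 dams, the number called higher moved from 2 to 1 with the filter, array weights and all 4 groups in one fit. The interaction was called for 2 genes with array weights, F13a1 and Adgre4, where 651 genes were called higher and 3965 lower of 16795. Leaving out 1 library gave 1 to 2 higher and 3 to 4 lower in both comparisons, and 0 in the maternal comparisons and the interaction. Over all genes, quantile normalization gave 5484 higher and 5812 lower in offspring of saline dams. Deviations of same-numbered libraries correlated at -0.07 to 0.12 for Sham and Sham-OVA, -0.10 to 0.06 for PM and PM-OVA, -0.25 to 0.10 for Sham and PM, and at 0.60, 0.22, 0.62 and -0.31 for Sham-OVA and PM-OVA, so no comparison had every pair above 0.1. Numbers were those of the sample titles. The library names of most OVA samples carry other numbers, which were not tested for pairing. With the replicate number as a block, 1 gene was higher and 3 lower in offspring of saline dams, 1 higher and 3 lower in offspring of PM2.5 dams, and 0 in the others. Leaving out the 3 shallowest libraries together, or Sham replicates 1 and 6, was chosen after seeing the data. Apart from the filter, the stricter threshold and the omissions, the cause of these changes was not tested. Depth limits Ly6c2, Cd300e, Treml4 and Adgre4 most, at 0 to 12 reads each in the 3 shallowest libraries.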
